A study of Mus musculus with 4 samples.

Results

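The miR-290 to miR-295 cluster was described here by its 7 members mir-290a, mir-291a, mir-291b, mir-292a, mir-293, mir-294 and mir-295, chosen by name from a small RNA sequencing table that lists 619 other microRNA precursors beside them. The table compares mouse embryonic stem cells (ESCs) with embryoid bodies (EBs) made from them, both from the feeder-independent stem cell line CGR8 (labelled with background strain C57BL/6 and donor strain 129P2/OlaHsd, passages 5 to 13). The ESCs, labelled day 0, were kept in 10% serum with leukemia inhibitory factor, the cytokine that holds mouse ESCs undifferentiated, at 100 U/ml. The EBs, labelled day 8, were aggregates without the factor in 20% serum, grown from hanging drops of 1000 cells for 2 days and then in suspension for 6 days. No genetic change or drug is named for either group, and both come from a single line.

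The cluster is transcribed in mouse ESCs as 1 long precursor that is cut into separate hairpins, so its members start from the same transcript. Oct4, Sox2 and Nanog bind near its promoter. Several of its products repress inhibitors of the cell cycle such as Cdkn1a and Lats2, and the cluster is known to be shut down as stem cells differentiate, when let-7 and other microRNAs rise. A microRNA finds its targets mainly through its seed, bases 2 to 8 from the 5′ end, so members with the same seed are expected to share many targets.

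All 7 hairpins lie on the + strand of chromosome 7 (GRCm38) between 3218626 and 3220841, a span of 2216 bases, in the order mir-290a, mir-291a, mir-292a, mir-291b, mir-293, mir-294 and mir-295. The hairpin of mir-290a (Mir290a, 3218626 to 3218708) lies outside the annotated protein-coding gene on the other strand, Nlrp12, which encodes a receptor of the NLR family. The other 6 overlap an annotated Nlrp12 exon, read from the opposite strand. Of the 6 gaps between neighbouring hairpins, 4 measure 188 to 218 bases and that from mir-291b to mir-293 782 bases, while mir-294 (Mir294, 3220641 to 3220724) and mir-295 (Mir295, 3220773 to 3220841) are separated by 48 bases.

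The mature 3′ arms are shown because their seeds divide the cluster. They are RefSeq sequences (GRCm38.p6), written 5′ to 3′ with the seed in capitals, and 3p sequences were matched for 6 members and 5p sequences for 7.
miR-291a-3p: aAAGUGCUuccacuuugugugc
miR-294-3p: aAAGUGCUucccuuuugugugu
miR-295-3p: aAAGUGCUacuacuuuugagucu
miR-290a-3p: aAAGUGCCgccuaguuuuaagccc
miR-291b-3p: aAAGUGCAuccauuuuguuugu
miR-293-3p: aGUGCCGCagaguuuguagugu
The first 3 share the seed AAGUGCU, the seed of the microRNAs known to restore normal cycling in ESCs that cannot process microRNAs. The seeds of miR-290a-3p and miR-291b-3p differ from it in the last base. The 5′ end of miR-293-3p lies at another place in the shared stretch, so its seed, GUGCCGC, is another one.

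The 5p arms are shown for a second grouping, which holds mir-292a too.
miR-290a-5p: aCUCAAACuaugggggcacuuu
miR-292a-5p: aCUCAAACugggggcucuuuug
miR-293-5p: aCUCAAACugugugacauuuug
miR-294-5p: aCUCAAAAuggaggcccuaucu
miR-295-5p: aCUCAAAUguggggcacacuuc
miR-291a-5p: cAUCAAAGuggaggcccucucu
miR-291b-5p: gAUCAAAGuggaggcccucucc
The counts are per hairpin, so reads from the 2 arms of an entry cannot be told apart and a seed serves below as a label of the entry, not of its reads. The arms are 22 to 24 bases long, so members were compared by count without division by length.

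Depth was 557250 and 557643 microRNA counts in the ESC columns and 139104 and 139360 in the EB columns. Within a group the 2 columns agreed more closely than counting error allows between separate libraries: the chi-square divided by its degrees of freedom came to 0.235 in the ESC columns and to 0.284 in the EB columns, where separate libraries give about 1. Over the 7 members the columns differed by at most 16 counts in the ESC pair and 14 in the EB pair, which is at most 0.281 of the counting error of the difference. Each pair differed by less than the sampling noise and was counted as 1 sample, by its mean. With 1 library per group there is no replicate check and no p-value. Every interval given is an exact 95% interval for counting error alone, and describes the pair of libraries, not the conditions.

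Other microRNAs place the libraries as follows. The miR-302 and miR-367 entries, known from primed pluripotent cells, took 0.0341% (ESC) and 6.53% (EB) of the counts. The 3 miR-124 entries, enriched in neurons, took 0.906% and 0.172%, and the 5 mesenchymal entries (miR-143, miR-145, miR-199 and miR-214) 0.243% and 0.0442%, so both lists were higher in the library labelled ESC. The summed means were 0 counts (ESC) and 1 count (EB) for 2 of 5 listed muscle entries (miR-1), 0 and 1 for the liver entry mir-122, and 7 and 0 for the erythroid pair mir-144 and mir-451a. The other muscle entries listed, mir-133a-1, mir-133a-2 and mir-206, were absent and could not be looked at. The part of other cell types in the differences below was not tested.

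The cluster took a like share of each library, and what differed was which member supplied the counts. The 7 entries together took 53.9% of the ESC library (53.8 to 54.1) and 52.3% of the EB library (52.0 to 52.6). Within that sum the share of mir-294 was 9.76% in ESCs and 50.2% in EBs, and the other 6 members each had a smaller share in the EB library. These shares within the cluster need no scaling between the libraries. With 1 share higher and the other 6 lower, 40.5 points of every 100 cluster counts (40.0 to 40.9) sat in a different member in the EB library. Shares of 1 sum add to 100, so these points are the higher share of mir-294. That share by itself makes the shares of the others smaller. In bulk RNA, fewer cells that make a member and less of it per cell cannot be told apart.

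**Figure D1:**
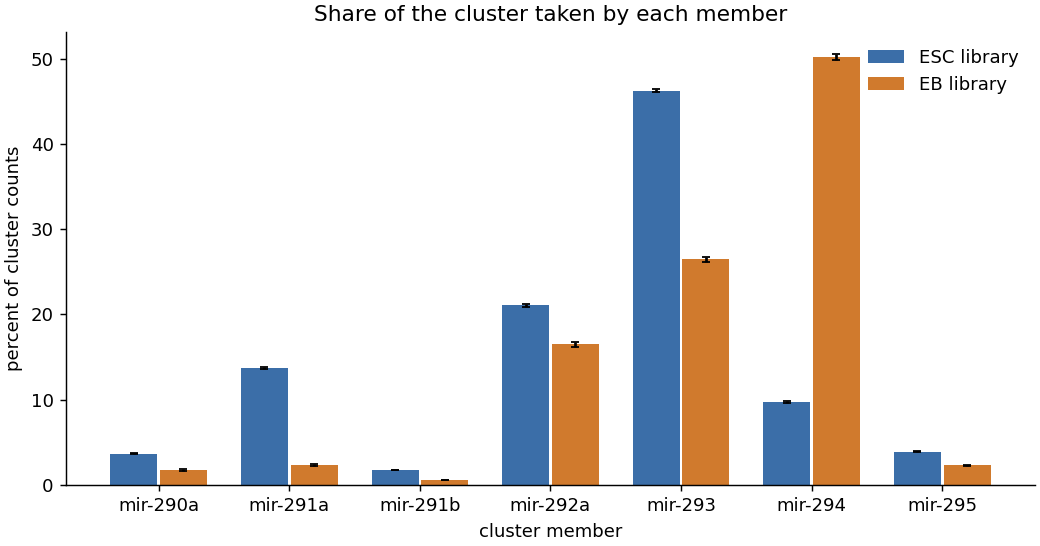
Share of all cluster counts (percent, y axis) taken by each of the 7 members (x axis) in the ESC and the EB library, with bars as means of the 2 columns counted as 1 library and whiskers as exact 95% counting intervals. mir-294 stands at 9.76% and 50.2%, and the other 6 members are lower in the EB library.

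mir-294, whose 3p arm carries the AAGUGCU seed, had 29323 and 29331 counts in the ESC columns and 36579 and 36578 in the EB columns. It thus had more counts in the EB library although that library was 4.0 times shallower. Its share of all counts was 5.26% (5.20 to 5.32) in ESCs and 26.3% (26.0 to 26.5) in EBs. Its rank among the 7 members was 4 in ESCs and 1 in EBs, where it was the most abundant of all entries. After TMM scaling (trimmed mean of M-values), which sets the libraries to a common level over their typical entries, it was 4.10-fold higher in the EB library (4.04 to 4.17).

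mir-293, the most abundant entry of the ESC library, had 139000 and 139012 counts in the ESC columns and 19265 and 19255 in the EB columns. Its share of the cluster was 46.2% (46.1 to 46.4) in ESCs and 26.5% (26.1 to 26.8) in EBs, a difference of -19.8 points, the furthest of the 6. On the TMM scale it was 2.19-fold lower (2.16 to 2.23). Its rank among all entries was 1 in ESCs and 2 in EBs, behind mir-294.

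mir-292a, second in the ESC library, had 63280 and 63296 counts in the ESC columns and 12009 and 11997 in the EB columns. Its share of the cluster was 21.1% (20.9 to 21.2) and 16.5% (16.2 to 16.8). It was the member whose share changed least in proportion, at 1.28 times less in the EB library, and on the TMM scale it was 1.60-fold lower (1.57 to 1.63), under the 2-fold line used here to call an entry lower or higher.

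mir-291a, which shares the seed of mir-294, moved the other way. It had 41320 and 41316 counts in the ESC columns and 1688 and 1689 in the EB columns. Its share of the cluster was 13.7% (13.6 to 13.9) in ESCs and 2.32% (2.21 to 2.43) in EBs, 5.93 times less. On the TMM scale it was 7.44-fold lower (7.09 to 7.82), the furthest of the 7, and its rank among all entries went from 3 to 12.

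mir-291b, the near relative of mir-291a, had 5175 and 5179 counts in the ESC columns and 404 and 400 in the EB columns. It was the scarcest member of both libraries, at 1.72% (1.68 to 1.77) and 0.552% (0.50 to 0.609) of the cluster, and was 3.91-fold lower on the TMM scale (3.54 to 4.34). Thus the 2 lowest folds of the cluster belonged to mir-291a and mir-291b, which share the 5p seed AUCAAAG and whose 5p arms match at 20 of 22 bases.

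The 2 ends of the cluster were close to each other in level. mir-290a had 10880 and 10890 counts in the ESC columns and 1230 and 1244 in the EB columns, and mir-295 had 11603 and 11597, and 1640 and 1648. mir-290a took 3.62% of the ESC cluster counts (3.55 to 3.69) and 1.70% of those of the EB library (1.61 to 1.80). mir-295 took 3.86% (3.79 to 3.93) and 2.26% (2.15 to 2.37). On the TMM scale mir-290a was 2.67-fold lower (2.52 to 2.84) and mir-295 was 2.14-fold lower (2.04 to 2.26).

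**Figure D2:**
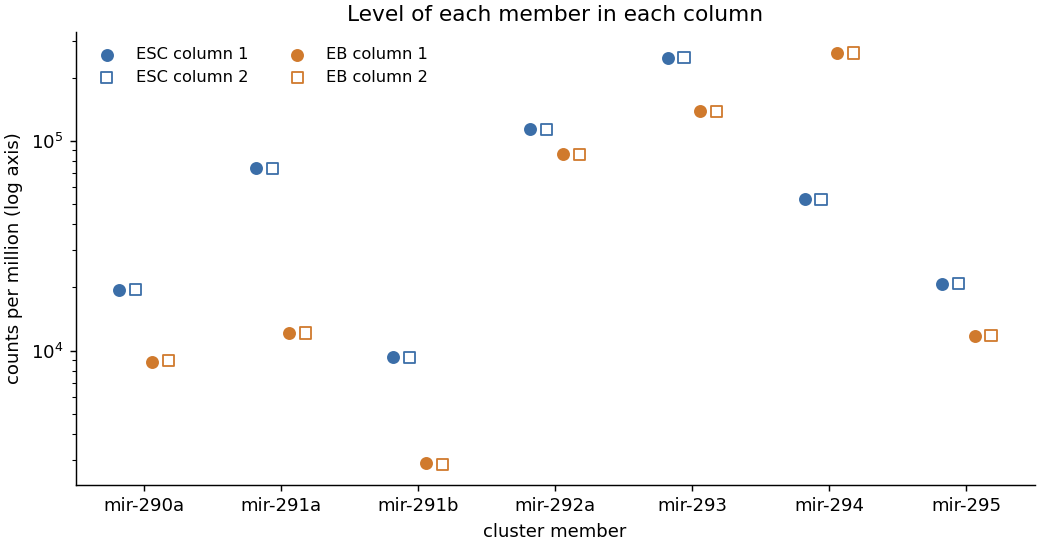
CPM (counts scaled to a common library total; y axis, log scale) of each member (x axis) in each of the 4 columns, where filled and open points are the first and the second column of a group. The 2 columns of a group lie on top of each other, and mir-294 is the member whose EB points lie above its ESC points.

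By the 2-fold line on the TMM scale, 5 of the 7 members were lower in the EB library, beside 30.2% of the 367 entries with enough counts to be measured, and 1 was higher, beside 33.5%. All 7 passed the count filter, and their lowest value in any column was 400 counts. The median log2 fold of the members was -1.13, and that of all measured entries was 0.07. It was -0.43 for the 130 entries outside the cluster with a mean CPM of at least 500, the more like in level. Numbered copies of a microRNA are separate entries here, such as mir-467a-1 (log2 fold 3.02) and mir-467a-10 (3.11). Shares and medians over measured entries thus weigh such microRNAs by their number of copies. Among the 137 measured entries whose mean CPM was 500 or more, to which all members belong, 40.1% were lower and 32.8% higher. The number of lower members rested on scaling. With library totals 3 members were lower and 1 higher, beside 26.4% and 38.4% of measured entries. In the authors' quantile-normalized values 4 were lower and 1 higher, beside 31.9% and 28.3%. When either EB column was left out, 3 were lower on the TMM scale. The filter and TMM factors were then computed again, and the EB columns are near copies, so this is no measure of replicate variation. mir-293 and mir-295, near the line on the TMM scale, had log2 folds of -0.85 and -0.82 with library totals. Set against the median of all measured entries, which no choice of linear scaling changes, the log2 folds of mir-293, mir-295 and mir-292a were -1.20, -1.17 and -0.75, that of mir-291a was -2.96 and that of mir-294 was 1.97. Against the -0.43 of the abundant entries outside the cluster, the lower members stand closer and mir-294 further off.

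**Figure D3:**
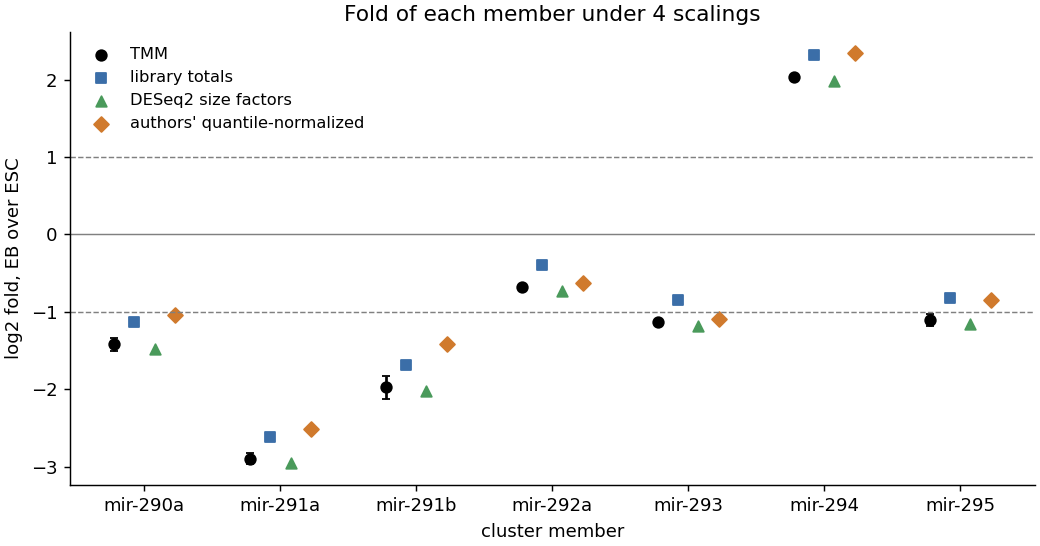
Log2 fold of the EB over the ESC library (y axis) for each member (x axis) under 4 scalings, with whiskers as 95% counting intervals on the TMM values and dashed lines at 2-fold. The sign of each member is the same under all 4, with mir-294 between 1.98 and 2.34, while mir-293 and mir-295 cross the 2-fold line.

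Without mir-294 the remaining 6 members took 48.7% of the ESC library (48.5 to 48.8) and 26.0% of the EB library (25.8 to 26.3), and their sum was 2.28-fold lower on the TMM scale (2.25 to 2.30). The sum of all 7 was 1.25-fold lower (1.24 to 1.26). The order of the 6 by level was the same in both libraries, namely mir-293, mir-292a, mir-291a, mir-295, mir-290a and mir-291b. In the EB library mir-291a and mir-295, with means of 1688.5 and 1644 counts, did not differ beyond counting error, while the other neighbours in that order did in both libraries. Their shares of the 6-member sum still differed. mir-291a went from 15.2% (15.1 to 15.4) to 4.66% (4.44 to 4.88) and mir-292a from 23.3% (23.2 to 23.5) to 33.1% (32.6 to 33.6). mir-293 was at 51.2% (51.1 to 51.4) and 53.2% (52.6 to 53.7).

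Ratios between 2 members show the same without any scaling. Of the 21 pairs of members, 20 had a ratio that differed between the libraries beyond counting error. The exception was mir-293 to mir-295, at 11.98 in ESCs and 11.7 in EBs, a change of 0.978 times (0.926 to 1.03). With at least 400 counts per member, even modest changes pass counting error. Pairs of entries outside the cluster were not counted, so the 20 cannot be called particular to the cluster. The largest change was that of mir-291a to mir-294, which have the same seed. There were 1.41 counts of mir-291a for each of mir-294 in the ESC library, and 21.7 counts of mir-294 for each of mir-291a in the EB library, a 30.5-fold change (29.0 to 32.1). For mir-293 and mir-294 the ratio of the first to the second went from 4.74 to 0.527, a 9.0-fold change (8.81 to 9.20).

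Among the 15 pairs that leave mir-294 out, the changes lay between 1.02 and 4.64 times, and among the 6 pairs with it between 6.58 and 30.5 times. The pair mir-292a and mir-291a gave the 4.64. The neighbours mir-294 and mir-295, 48 bases apart, went from 2.53 counts of mir-294 per count of mir-295 to 22.2, a change of 8.80 times (8.34 to 9.29).

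**Figure D4:**
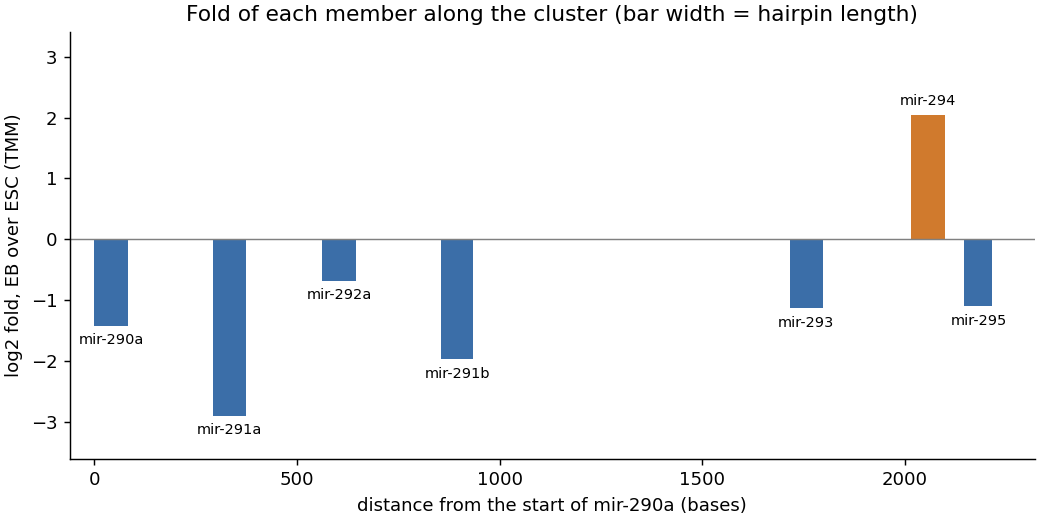
Log2 fold of the EB over the ESC library on the TMM scale (y axis) at the place of each hairpin, by distance in bases from the start of mir-290a (x axis), with bar width as hairpin length. The bar above 0 is mir-294 at 2.04, between mir-293 at -1.13 and mir-295 at -1.10.

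Grouped by 3p seed, the AAGUGCU members mir-291a, mir-294 and mir-295 together took 27.4% of the cluster counts in ESCs (27.2 to 27.5) and 54.8% in EBs (54.5 to 55.2). Their summed mean counts were 82245 (ESC) and 39911 (EB), 1.60-fold higher in EBs on the TMM scale (1.58 to 1.62). Within the group only mir-294 was higher, on each scaling tried. The GUGCCGC entry mir-293, the AAGUGCC entry mir-290a and the AAGUGCA entry mir-291b were each lower, as was mir-292a, which had no 3p sequence matched and is in none of these groups. Grouped by 5p seed, the CUCAAAC members mir-290a, mir-292a and mir-293 went from 70.9% (70.8 to 71.1) to 44.6% (44.3 to 45.0) of the cluster. The AUCAAAG members mir-291a and mir-291b went from 15.5% (15.3 to 15.6) to 2.87% (2.75 to 2.99).

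The 3p arms of mir-291a and mir-294 differ, counted from the 5′ end, by A12C, C13U and C22U, and match at the other 19 of 22 bases. miR-291b-3p and miR-294-3p also match at 19 of 22. No source used here gives how reads that fit more than one of these entries were assigned. Some numbered copies of a microRNA had nearly equal levels. Mean CPM over both libraries was 1799, 1808 and 1787 for mir-124-1, mir-124-2 and mir-124-3. Other copies differed, such as mir-297a-1 at 76.3 and mir-297a-4 at 334. Whether shared reads were counted at each copy or divided among copies was not tested. The sum of mir-291a and mir-294 does not depend on how reads were divided between them, provided no read was counted under both. That sum took 12.7% of the ESC library (12.6 to 12.8) and 27.5% of the EB library (27.2 to 27.7). It was 1.78-fold higher in the EB library on the TMM scale (1.76 to 1.80).

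Outside the cluster the AAGUGCU seed was found in the table's entries mir-302b and mir-302d, 2 members of the miR-302 cluster on chromosome 3, which is known to take over in epiblast-stage pluripotent cells. Their 3p arms are shown for comparison with miR-294-3p.
miR-302b-3p: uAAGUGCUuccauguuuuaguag
miR-302d-3p: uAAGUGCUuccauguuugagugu
mir-302d had 94 and 100 counts in the ESC columns and 5233 and 5239 in the EB columns, and mir-302b had 73 and 69, and 3040 and 3037. No 3p sequence was matched for mir-302a or mir-292a, so the sums below cover only the 5 entries matched to the seed. These together took 14.8% of the ESC library (14.7 to 14.9) and 34.6% of the EB library (34.4 to 34.9). In the ESC library 50.1% of the counts of these 5 entries came from mir-291a, 35.6% from mir-294, 14.1% from mir-295 and 0.204% (0.174 to 0.237) from the 2 miR-302 entries. In the EB library 75.9% came from mir-294, 17.2% (16.8 to 17.5) from the miR-302 entries, 3.50% from mir-291a and 3.41% from mir-295. mir-350, whose 5p arm has the AAGUGCA seed of miR-291b-3p, had 48 and 7 mean counts, a ratio with an interval that included no difference (2.08-fold lower, 0.938 to 5.46).

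**Figure D5:**
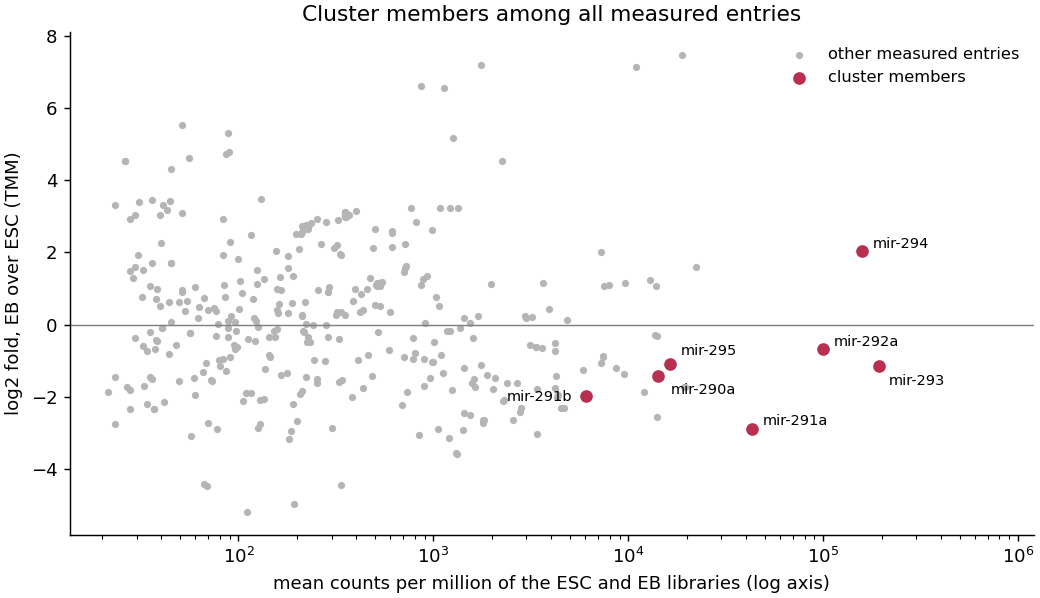
Log2 fold of the EB over the ESC library on the TMM scale (y axis) against the mean CPM of both libraries (x axis, log scale) for the 367 measured entries, with the 7 members marked. mir-294, mir-293 and mir-292a lie furthest to the right, at log2 folds of 2.04, -1.13 and -0.68.

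Entries outside the cluster were compared with each member by their log2 fold over the 2 libraries, among the 130 with a mean CPM of at least 500. Of these, 18 were as high as mir-294 or higher, and 7 as low as mir-291a or lower, with numbered copies counted apart. Nearest to mir-294 (2.04) were mir-5099 at 2.00, mir-466g at 2.14 and mir-466d at 2.25. Nearest to mir-291a (-2.89) were mir-145a at -2.90, mir-27a at -2.91 and mir-23a at -3.03. mir-293 and mir-295 both had mir-30a, at -1.12, and mir-183, at -1.07, among their nearest 3, and the nearest to mir-292a was mir-26b at -0.70. With 2 libraries this likeness rests on a single difference per entry. The let-7 entries, named above as background, were looked up after their values were seen, at a mean CPM of at most 412. Log2 folds of let-7f-1, let-7f-2 and let-7i were 0.20, 0.11 and 0.63. The other measured let-7 entries were lower in the EB library, down to -1.55 for let-7c-2. No intervals were computed for them.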

How the data were processed

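Small RNA libraries (Ion Total RNA-Seq kit, PCR amplified, Ion Torrent PGM, per the labels' protocols) gave 1 table by precursor. No source used here names the aligner, counter, build or microRNA release. The authors deposited whole-number counts per column, with no normalization, and a normalized signal. The deposited signal held the same values in all 4 columns, as quantile normalization does. No molecular identifiers are described, so reads are not independent molecules.

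Counts from the mir-664 row on sat 1 row too low and were moved up. This left mir-99b without counts, and of 7280 candidate sets the 1 that gave every normalized value was used. The members' rows lie above. TMM factors came from edgeR 4.0.16 after filterByExpr (minimum count 10, total 15), and size factors from DESeq2 1.42.0. Shares have Clopper-Pearson intervals, folds and pair ratios exact conditional ones. A 0 was set to 3 counts for folds. No test was run, since each pair of columns was counted as 1 library. Python 3.11.15, scipy 1.17.1 and R 4.3.3 were used. Alternatives were other scalings, no filter, left-out columns, quantile values and other groupings. Fold calculations were tested on simulated data with independent columns and equal numbers of raised and lowered entries. The deposited columns are not independent, so that test covers the calculation and not these libraries. Members, lists and the rule for named entries (all members, entries with a member's 3p seed, and the 3 nearest by fold) were chosen with earlier results of these data known.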

Additional observations from a re-analysis of the deposited data

How the results depend on the processing

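Of 77 recomputed log2 folds of members, 77 kept their sign. Most of these settings had little room to change a sign, so the 77 are not separate checks. Linear scalings shift all members alike, the columns of a group are near copies, and the counts as deposited hold the same member values. The median log2 fold of -1.13 was -0.85 with library totals, -1.19 with DESeq2 size factors, -1.07 with TMM computed without the 7 members, -1.28 with no filter before TMM and -1.05 in the quantile-normalized values; with 1 column left out it ranged from -1.19 to -0.86. The number of members at least 2-fold lower was 3 with library totals and 3 to 5 with 1 column left out and TMM computed again. Quantile-normalized values gave the cluster 54.5% of the ESC and 48.4% of the EB sum, 42.9 points in different members, and an AAGUGCU share of 26.9% and 57.1%. Such values give the top entry of each library, mir-293 or mir-294, the same 87792. Without mir-294 in the sum, 11.97 points sat in different members. With a seed of 6 bases the seed group took 32.7% and 57.1% of the cluster; mir-292a, with no 3p sequence matched, is in neither grouping's sum. TMM set EB to ESC log2 folds 0.28 below library totals, and the median of all measured entries was 0.35 with totals and -0.19 in the quantile values. The labels do not say what a replicate number shares. Deviations of same-numbered columns had a correlation of 0.27 over 342 entries, and with the replicate block (no test) the median log2 fold was -1.13 and 5 members were lower. Depth limits no member, since the lowest had 400 counts.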

Other observations

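The table also lists mir-292b, a hairpin annotated on the strand opposite to mir-292a, at 3219198 to 3219259 on chromosome 7 (GRCm38). It was named after its values were seen. It had 3 and 3 counts in the ESC columns and 1 and 1 in the EB columns, at or under the floor of 3 counts in both libraries, so no fold is given. At the same place mir-292a had means of 63288 and 12003 counts.

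The counts were spread over fewer members in the EB library. The effective number of members (the inverse of the summed squared shares, 7 if all were equal) was 3.45 for ESCs and 2.85 for EBs. The 2 most abundant members of each library held 67.3% of the cluster counts in ESCs (67.1 to 67.5), where they were mir-293 and mir-292a, and 76.7% in EBs (76.4 to 77.0), where they were mir-294 and mir-293.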
